A study of Mus musculus with 2 samples.

Results

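The genes described here are 10 genes of bone and tooth mineralization with osteopontin, chosen by symbol: Spp1, Ibsp, Dmp1, Phex, Mepe, Runx2, Sp7, Alpl, Enpp1 and Mgp. Of these 10 genes, 9 had reads among the 17431 genes with a read in either library. Poly(A) RNA was sequenced from 1 culture of skin-derived precursors (SKPs) and 1 culture of fibroblasts, both from the dermis of BALB/c mice. SKPs are dermal precursor cells that are selected by growth in FGF2 and EGF. The SKP culture came from mice at postnatal day 4 and was grown in DMEM/F12 that held 40 ng/ml of FGF2, 20 ng/ml of EGF and B27 supplement at 2%. The fibroblast culture came from mice at postnatal day 3 and was kept in DMEM to which 10% fetal bovine serum was added. No genetic change is named in the labels, and cell type, medium, serum and age cannot be told apart.

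Mineral is laid down in bone where phosphate outweighs pyrophosphate. Osteopontin (Spp1), bone sialoprotein (Ibsp), Dmp1 and Mepe are secreted acidic phosphoproteins of the SIBLING family, whose genes lie side by side and which bind mineral and, through an RGD motif, integrins. The transcription factors Runx2 and osterix (Sp7) set up the osteoblast lineage. Enpp1 makes pyrophosphate, which blocks crystal growth, Alpl breaks it down, Mgp keeps soft tissue free of mineral, and Phex is a bone cell peptidase whose loss causes phosphate wasting. In soft tissue osteopontin is also made by macrophages and in wounded skin.

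The SKP library held 22981183 reads, of which 82.5% were counted to genes, and the fibroblast library 23374716 reads, of which 78.7% were counted. There was 1 library per cell type and therefore no replicate check and no test of the cell types. All fold differences and counts below compare these libraries only. Intervals in parentheses are 95% exact counting intervals (Clopper-Pearson for ratios and shares, Poisson for levels) and cover counting error only. Levels are in RPKM, the reads of a gene divided by its length in kilobases and scaled to the size of the library. Fewer cells that make a transcript and less of it per cell cannot be told apart in such bulk RNA.

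The SKP library held more RNA of most of the mineralization genes, with Spp1 far above the rest in both cultures and with Mgp furthest apart between them among the genes with reads in both. Expression was called from RPKM 1 and 20 reads upward in either library, and a gene counted as higher or lower from 2-fold upward where the interval left out equality. By that rule 6 of the 10 genes were expressed, 5 of them (Spp1, Sp7, Alpl, Enpp1 and Mgp) were higher in the SKP library, none (0) was lower and Runx2 was neither. Among all 12053 expressed genes 12.1% were higher in the SKP library and 6.41% were lower. The median log2 ratio of SKP over fibroblast was 1.86 over the 6 expressed genes and -0.01 over all expressed genes. Of the others, Dmp1 and Ibsp had reads in the SKP library only, Phex had few reads in either and Mepe had none. Without the expression limit 7 of the 9 genes with reads were higher in the SKP library and 0 were lower, beside 12.6% higher and 6.22% lower of all 17431 genes.

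**Figure D1:**
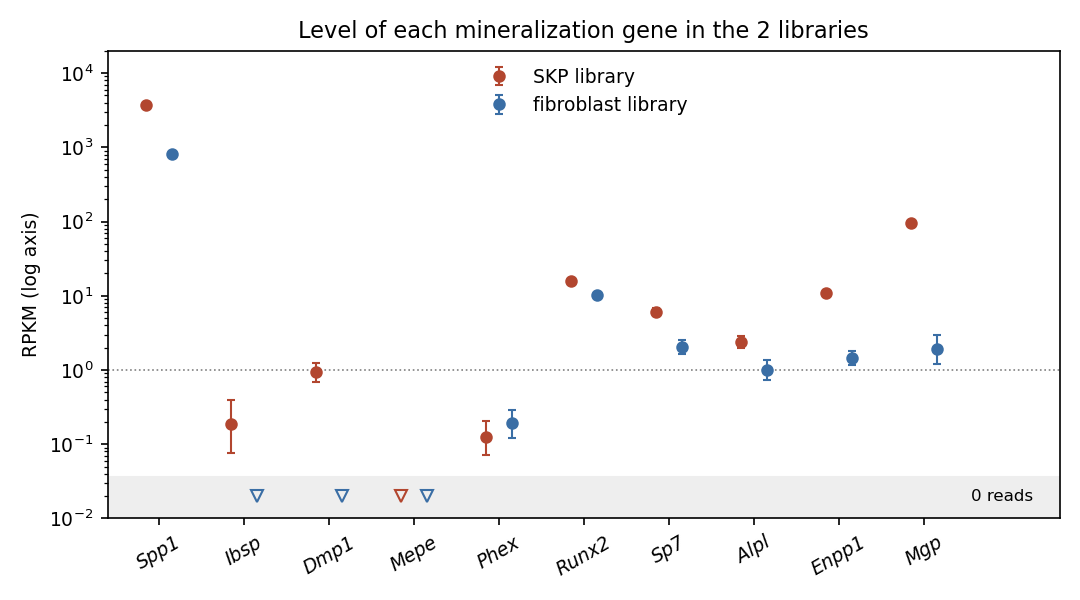
RPKM (log axis) of the 10 mineralization genes in the SKP library (red, left of each pair) and the fibroblast library (blue, right), with 95% Poisson counting intervals; open triangles in the grey band mark 0 reads and the dotted line marks RPKM 1. Spp1 stands at 3709 RPKM in SKPs and 824 in fibroblasts, and the other genes lie below 100 RPKM in both libraries.

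Osteopontin was the dominant mineralization transcript of both cultures. Spp1 (gene ID 20750) had 106623 reads in the SKP library, against 23009 in the fibroblast library. Its level was 3709 RPKM (3687 to 3731) in SKPs and 824 RPKM (813 to 835) in fibroblasts. The SKP library thus held 4.50-fold more of it (4.44 to 4.57), and 5.26% of expressed genes had a ratio at least as high. It took 0.563% of all counted SKP reads (0.559 to 0.566), against 0.125% of fibroblast reads (0.123 to 0.127). By RPKM it ranked 3 in the SKP library and 63 in the fibroblast library. Of the summed RPKM of the 10 genes, Spp1 made up 96.6% in SKPs and 98.0% in fibroblasts.

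The genes whose levels in the 2 libraries were most like those of Spp1 were found by distance on the log2 RPKM of both. In order these were Crabp1, a retinoic acid binding protein (distance 0.79), B2m, the light chain of class I MHC (0.95), the ferritin heavy chain gene Fth1 (1.39), the fibrillar collagen gene Col3a1 (1.46) and the interferon-induced membrane protein gene Ifitm3 (1.65). Their ratios ran from 3.60-fold for Col3a1 down to 1.14-fold for Ifitm3, all under the 4.50-fold of Spp1. Of 14 genes with at least 50% of the Spp1 level in the SKP library (1855 RPKM), 4 had a ratio as high as that of Spp1 or higher. Besides Spp1 these were Dcn, H19 and Mmp3.

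The other SIBLING genes were scarce or not detected. Dmp1 (13406), a regulator of mineral formation made by osteocytes and odontoblasts, had 49 reads in the SKP library and 0 in the fibroblast library. Its SKP level was 0.937 RPKM (0.693 to 1.24), under the expression limit of 1, and for 0 fibroblast reads the Poisson limit was 0.0726 RPKM. Set against a floor of 3 reads in the fibroblast library, 0.0591 RPKM, Dmp1 was at least 15.9-fold higher in SKPs. That bound holds against the floor only, and the exact limit, in which the SKP reads have an error too, was lower, at 12.4. Ibsp (15891), bone sialoprotein, a mineral-nucleating protein of osteoblasts, had 7 reads in the SKP library (0.189 RPKM, 0.0760 to 0.389) and 0 in the fibroblast library. It was at least 2.27-fold higher in SKPs against the same floor, with a lower exact limit of 1.40. Mepe (94111), a bone and tooth protein that gives rise to a mineral-binding peptide, had 0 reads in both, so that no fold is given.

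These SIBLING genes are neighbours on mouse chromosome 5, in the RefSeq order Dspp, Dmp1, Ibsp, Mepe and Spp1. Dspp, the dentin member of the family, had 0 reads in both libraries. From Dspp to Mepe no gene reached RPKM 1 in either library, while Spp1 closed the row. On the side of Dspp the next gene was Sparcl1, a matricellular protein gene outside the SIBLING family. It stood at 272 RPKM in SKPs and 1.77 RPKM in fibroblasts, 154-fold higher in the SKP library (126 to 188). Farther out on that side, beyond Gm17660 with 1 SKP read and 0 fibroblast reads, lay Nudt9, at 35.3 RPKM in SKPs and 27.1 in fibroblasts, 1.30-fold apart. Next to Spp1 lay Pkd2, which encodes polycystin-2, at 66.0 RPKM in SKPs and 50.2 in fibroblasts, 1.31-fold apart.

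**Figure D2:**
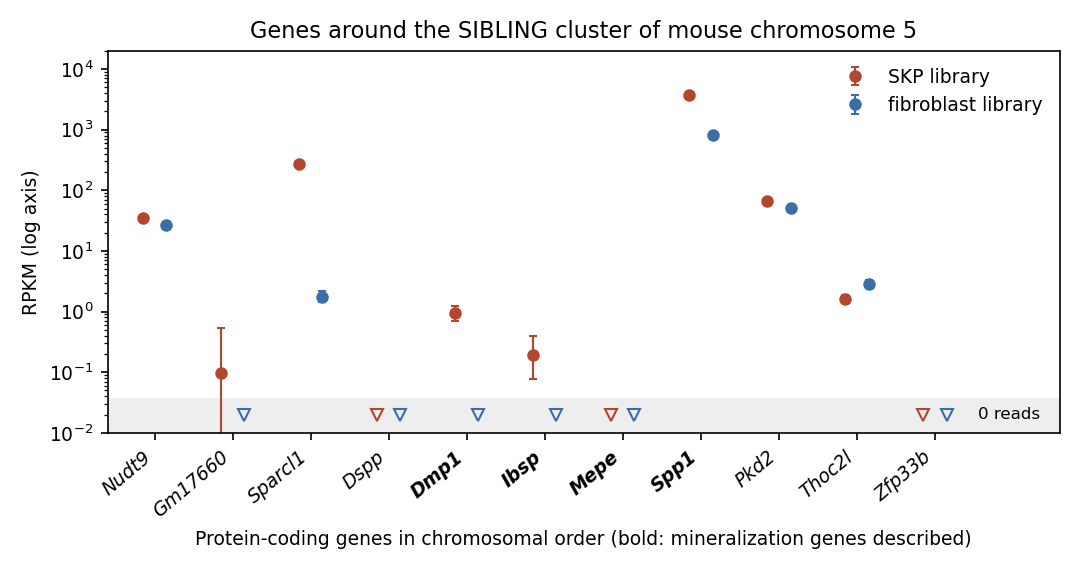
RPKM (log axis) of 11 protein-coding genes in their RefSeq order around the SIBLING genes, in the SKP library (red, left) and the fibroblast library (blue, right), with 95% Poisson counting intervals; open triangles mark 0 reads and bold names mark the mineralization genes described. Spp1 and Sparcl1 are the high genes of the SKP library, at 3709 and 272 RPKM, with genes at or near 0 between them.

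The sequences before the transcript starts of these 4 SIBLING genes are shown because their levels differed so widely. Each run is the 250 bases upstream of a RefSeq start in build GRCm38.p6, plus strand, from 5′ to 3′, and capitals mark the core of the RUNX binding motif, ACCACA or its reverse complement TGTGGT, which Runx2 recognises. The deposited values used build mm9, and these coordinates are RefSeq's own. Where a gene has several starts, the one shown is the start with the motif, chr5:104434861-104435110 for Spp1 and chr5:104202367-104202616 for Dmp1, and the others are chr5:104299037-104299286 for Ibsp and chr5:104325079-104325328 for Mepe.
Spp1: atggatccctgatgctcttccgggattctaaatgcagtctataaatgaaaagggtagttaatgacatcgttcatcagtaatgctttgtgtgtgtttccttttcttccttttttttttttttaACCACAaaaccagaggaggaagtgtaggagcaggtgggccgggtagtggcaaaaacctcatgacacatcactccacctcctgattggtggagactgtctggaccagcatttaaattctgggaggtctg
Dmp1: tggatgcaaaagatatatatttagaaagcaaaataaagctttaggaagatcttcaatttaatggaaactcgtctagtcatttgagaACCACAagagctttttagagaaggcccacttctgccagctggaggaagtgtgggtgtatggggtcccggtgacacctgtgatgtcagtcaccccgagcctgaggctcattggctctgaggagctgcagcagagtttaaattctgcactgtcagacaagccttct
Ibsp: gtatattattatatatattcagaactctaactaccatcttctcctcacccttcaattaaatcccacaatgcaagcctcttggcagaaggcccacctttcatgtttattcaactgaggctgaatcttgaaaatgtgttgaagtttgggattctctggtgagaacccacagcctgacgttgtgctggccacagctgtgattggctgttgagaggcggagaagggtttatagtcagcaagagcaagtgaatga
Mepe: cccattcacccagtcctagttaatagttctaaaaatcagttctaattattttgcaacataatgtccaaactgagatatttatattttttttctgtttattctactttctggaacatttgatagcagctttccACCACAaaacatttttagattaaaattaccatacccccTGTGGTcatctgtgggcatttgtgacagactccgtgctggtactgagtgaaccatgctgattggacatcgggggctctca

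The motif was present once in the Spp1 run, from position -128 relative to the start, and once in the Dmp1 run, from position -164. The run of Mepe, which had 0 reads, held it in 2 places, from -118 and -80, and the Ibsp run held none. The second start of Spp1 and the first start of Dmp1 lacked it. Upstream sequence was found for 8 of the 10 genes, without Sp7 and Mgp, over 11 starts. With Runx2 itself (-80) and Enpp1 (-144), 5 of these 8 genes had the motif at 1 start each. Over all genes in the same RefSeq table, 15.9% had it within 250 bases of any start, as did 14.0% of the 32851 starts. The AP-1 motif TGAGTCA, or TGACTCA on the other strand, was found in 0 of the 8 genes and in 5.16% of all genes. A match is a description of letters, and binding was not measured.

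The osteoblast transcription factors were present in both cultures. Runx2 (12393), needed for osteoblast formation, had 1954 reads in SKPs and 1232 in fibroblasts, or 15.9 RPKM (15.2 to 16.6) in SKPs and 10.3 RPKM (9.77 to 10.9) in fibroblasts. The difference of 1.54-fold (1.43 to 1.66) lay beyond counting error but under 2-fold, and 18.0% of expressed genes had a ratio at least as high. Sp7 (170574), osterix, which acts after Runx2 in osteoblasts, had 261 reads in SKPs and 86 in fibroblasts. At 6.03 RPKM (5.32 to 6.81) in SKPs and 2.05 RPKM (1.64 to 2.53) in fibroblasts it was 2.95-fold higher in SKPs (2.30 to 3.81). Runx2 thus stood above Sp7 per gene length in each library.

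The genes on each side of the pyrophosphate balance were both higher in SKPs, and Enpp1 was more so. Alpl (11647), tissue-nonspecific alkaline phosphatase, which removes pyrophosphate, had 114 reads in SKPs and 47 in fibroblasts. At 2.39 RPKM (1.97 to 2.87) in SKPs and 1.01 RPKM (0.744 to 1.35) in fibroblasts, it was 2.36-fold higher in SKPs (1.66 to 3.38). On the log2(RPKM + 1) scale its difference was 0.75, under 2-fold, and at an expression limit of RPKM 5 it was not counted, so this call does not hold under either setting. Enpp1 (18605), which makes pyrophosphate from ATP outside the cell, had 672 reads in SKPs and 87 in fibroblasts. Its levels were 11.0 RPKM (10.2 to 11.9) in SKPs and 1.47 RPKM (1.17 to 1.81) in fibroblasts. It was 7.50-fold higher in SKPs (5.99 to 9.49), and 3.54% of expressed genes had a ratio at least as high.

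Set against each other per gene length within a library, Enpp1 stood 4.61-fold above Alpl in SKPs (3.77 to 5.67) and 1.45-fold above it in fibroblasts (1.004 to 2.11). These intervals did not overlap, while their spread between cultures is unknown.

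Mgp (17313), matrix Gla protein, a vitamin K-dependent inhibitor of mineral in arteries and cartilage, had the widest difference among the 7 genes with reads in both libraries. It had 1099 reads in SKPs and 22 in fibroblasts, or 94.5 RPKM (89.0 to 100.2) in SKPs and 1.95 RPKM (1.22 to 2.95) in fibroblasts. It was 48.5-fold higher in SKPs (31.9 to 77.8), a ratio reached by 0.996% of expressed genes. By RPKM it ranked 676 in SKPs and 10254 in fibroblasts among the 17431 genes. The fibroblast value rests on 22 reads, close to the limit of 20.

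Phex (18675), the endopeptidase of osteoblasts and osteocytes, had 15 reads in SKPs and 22 in fibroblasts. The levels of 0.126 RPKM (0.0707 to 0.208) in SKPs and 0.191 RPKM (0.120 to 0.289) in fibroblasts gave a ratio of 0.662 (0.320 to 1.34) of SKP over fibroblast. A difference was not detectable at this depth, and both levels were below the expression limit.

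**Figure D3:**
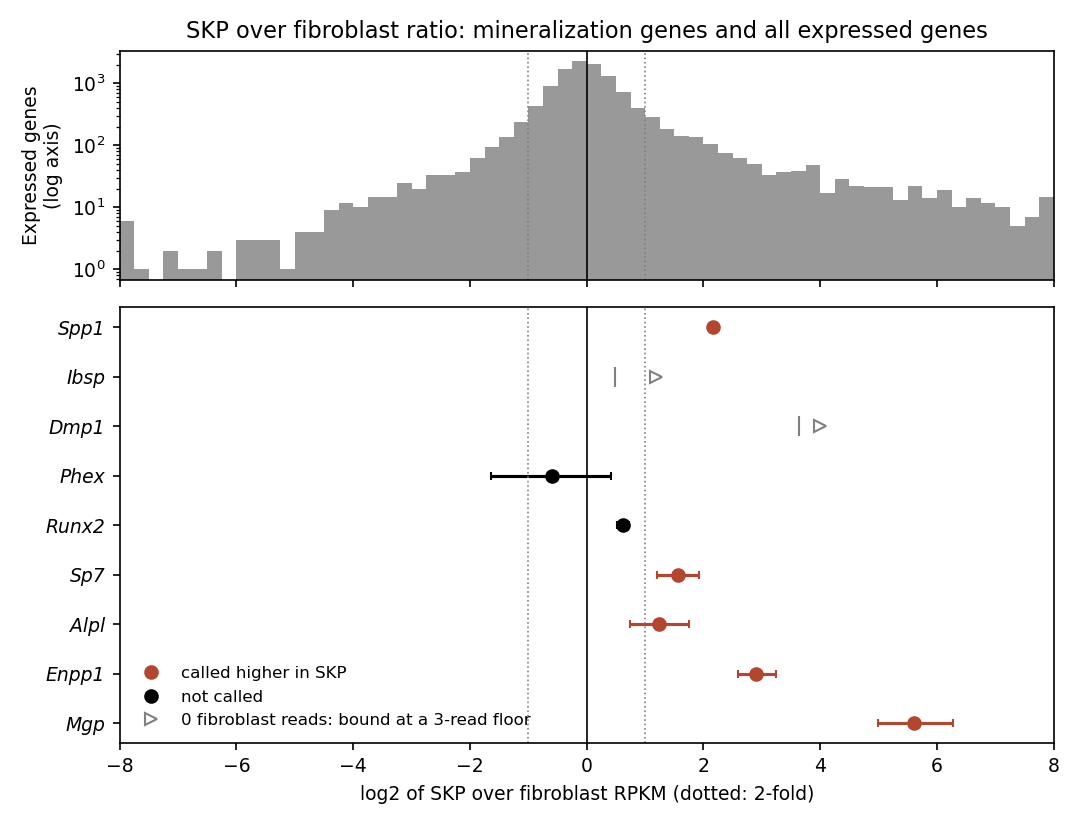
Lower panel: log2 of SKP over fibroblast RPKM for the 9 mineralization genes with reads, with 95% exact counting intervals (red, called higher; black, not called; grey triangles, bound at a floor of 3 fibroblast reads, with a tick at the exact limit). Upper panel: the same ratio for 12053 expressed genes (count on a log axis, values beyond 8 drawn at the edge); Mgp at 5.60 and Enpp1 at 2.91 lie in the upper tail.

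In order of level per gene length, the SKP library ran Spp1, Mgp, Runx2, Enpp1, Sp7, Alpl, Dmp1, Ibsp, Phex and Mepe. Of the neighbours with reads in that order, Ibsp and Phex did not differ beyond their counting intervals. The fibroblast library ran Spp1, Runx2, Sp7, Mgp, Enpp1, Alpl and Phex, with Ibsp, Dmp1 and Mepe at 0. There the intervals of Sp7 and Mgp, of Mgp and Enpp1, and of Enpp1 and Alpl overlapped. Mgp therefore stood next to the top in SKPs and among the genes near 1 to 2 RPKM in fibroblasts.

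The deposited coverage is the percentage of a gene's length that lies under reads. It depends on the number of reads, and Sp7, Enpp1 and Mgp had fewer in fibroblasts (86, 87 and 22). Their lower coverage there is therefore not a separate sign of a difference. Sp7 was covered over 97.1% of its length in SKPs and 75.3% in fibroblasts, Enpp1 over 95.7% in SKPs and 62.0% in fibroblasts, and Mgp over 94.0% in SKPs and 65.2% in fibroblasts. Runx2 was covered almost fully in both, at 97.1% in SKPs and 94.3% in fibroblasts. The 49 Dmp1 reads of the SKP library covered 50.4% of its 2760 bases, of the 87.0% that they can cover, and the 7 Ibsp reads covered 335 bases, 17.1% of the length, of the 17.5% that 7 reads of 49 bases can cover. The 7 Ibsp reads thus hardly overlapped, and their places along the gene are not in the values used here.

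For Phex, 15 reads covered 7.50% of the gene in SKPs, of at most 11.7%, and 22 reads covered 6.74% in fibroblasts, of at most 17.2%. Spp1 was covered over 99.7% of its 1517 bases in SKPs, with 4 bases lacking a read, and over 91.2% in fibroblasts, with 133 bases lacking a read. The mean depth there was 3444 reads per base in SKPs and 743 in fibroblasts. Of the 63 fibroblast genes with a mean depth at least that of Spp1, itself included, 9 had coverage that low or lower, and the median coverage of the 63 was 98.2%. Which bases these are is not in the values used here.

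**Figure D4:**
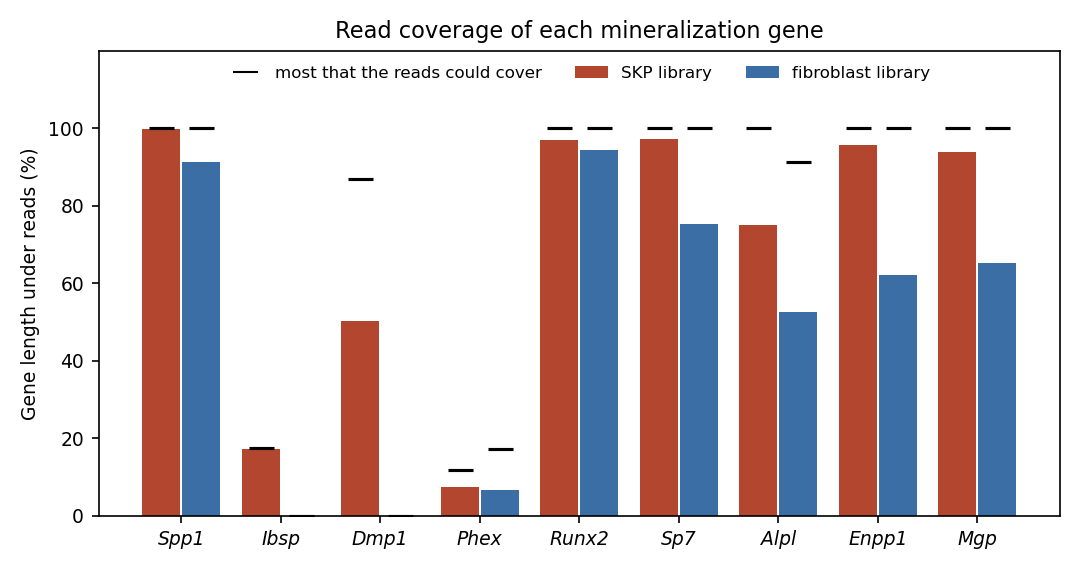
Percentage of each gene's length under reads in the SKP library (red, left) and the fibroblast library (blue, right); black dashes mark the most that the reads could cover if none overlapped. Spp1 and Runx2 exceed 90% in both libraries, and Phex stays below 8%.

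Around these genes, 6 lists of other mineralization and osteopontin genes were read by the same rule. Of 71 genes 61 had reads and 48 were expressed, of which 17 were higher in SKPs, 5 lower and 26 neither, beside the 12.1% higher and 6.41% lower among all expressed genes. Their median log2 ratio was 0.50. With 6 to 11 expressed genes a list, counts of 1 or 2 lie near that background and are no result about a list. Most of the expressed phosphate genes and osteopontin-cutting proteases were higher in SKPs. In the 6 lists, Galnt3, Mmp12, Msx1 and Hey1 passed the expression limit through the SKP library only and could not be called lower. Omd passed it through the fibroblast library only and could not be called higher.

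Of 9 expressed phosphate and pyrophosphate genes, 7 were higher in SKPs, none (0) was lower and 2 were under 2-fold apart, and the median log2 ratio was 1.27. The sodium-phosphate transporter gene Slc20a1 stood at 216 RPKM in SKPs and 48.9 in fibroblasts, 4.41-fold higher (4.23 to 4.58), and its relative Slc20a2, at 36.9 RPKM in SKPs and 17.0 in fibroblasts, was 2.17-fold higher. Galnt3, a glycosyltransferase that protects the phosphate hormone FGF23, was 6.03-fold higher in SKPs (3.70 to 10.4). It had 118 SKP reads (1.69 RPKM) and 19 fibroblast reads (0.280 RPKM). At an expression limit of RPKM 5 it was not counted, and 6 of 8 genes of the list were higher. Enpp3, a relative of Enpp1, was 2.95-fold higher, and Fam20c, the kinase that phosphorylates SIBLING proteins, was 2.71-fold higher (2.30 to 3.21). Ank, which carries ATP and pyrophosphate out of the cell, and Nt5e, the 5′-nucleotidase, were chosen after their values were seen. Ank stood at 25.7 RPKM in SKPs and 10.6 in fibroblasts (2.41-fold, 2.21 to 2.64), and Nt5e at 13.4 RPKM in SKPs and 5.71 in fibroblasts (2.34-fold, 2.07 to 2.65). Fgf23 itself had 0 reads in both.

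Of 9 expressed osteopontin receptor genes, 3 were higher in SKPs, 0 were lower and 6 were neither, at a median log2 ratio of 0.57. The 3 higher genes included both chains of the integrin alpha-v beta-3, the classical RGD receptor of osteopontin. Itgav stood at 71.9 RPKM in SKPs and 32.5 in fibroblasts (2.21-fold, 2.13 to 2.29), and Itgb3 at 31.1 RPKM in SKPs and 7.11 in fibroblasts (4.37-fold, 4.04 to 4.73). Itga8, the partner of beta-1 in another RGD receptor, was 5.61-fold higher in SKPs (5.12 to 6.15). Itgb1, the most abundant chain, stood at 199.6 RPKM in SKPs and 306 in fibroblasts, Itgb5 at 159 RPKM in SKPs and 107 in fibroblasts, and Itga9 at 6.08 RPKM in SKPs and 3.26 in fibroblasts, all under 2-fold apart. Cd44, a non-integrin osteopontin receptor chosen after its values were seen, stood at 51.7 RPKM in SKPs and 86.1 in fibroblasts.

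Of 6 expressed genes for proteases that cut osteopontin, 4 were higher in SKPs, 0 lower and 2 neither, at a median log2 ratio of 3.53. All 4 were matrix metalloproteinases. The gelatinase gene Mmp9 stood at 261 RPKM in SKPs and 1.96 in fibroblasts, and the gelatinase gene Mmp2 at 1215 RPKM in SKPs and 283 in fibroblasts. Mmp3, stromelysin, stood at 1860.4 RPKM in SKPs and 27.1 in fibroblasts, and Mmp12, macrophage elastase, at 7.97 RPKM in SKPs and 0.256 in fibroblasts. The thrombin gene F2, whose product cuts osteopontin beside its RGD motif, had 4 reads in SKPs and 0 in fibroblasts.

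The list of other bone matrix genes held 6 expressed genes. Of these, 1 was higher in SKPs, as Spp1 was, 2 were lower and 3 neither, at a median log2 ratio of -0.38. Counts this small are no result about the list. The higher gene was Dcn, which encodes the collagen-binding proteoglycan decorin, at 2007 RPKM in SKPs and 291 in fibroblasts (6.89-fold). Col1a1, the main collagen of bone and dermis, was lower in SKPs at 2161 RPKM, against 4474 in fibroblasts. Omd, the bone proteoglycan osteomodulin, was lower too, with 5 reads in SKPs and 48 in fibroblasts. Bgn, the proteoglycan biglycan, stood at 2545 RPKM in SKPs and 3373 in fibroblasts and was neither. Bglap, which encodes osteocalcin, had 0 reads in both, and its near-identical copy Bglap2 had 1 read in each, where the split between the copies is uncertain.

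Of 11 expressed transcription factor genes of the osteoblast lineage, 2 were higher in SKPs, 2 lower and 7 neither, at a median log2 ratio of -0.14. The relatives of Runx2 were lower in SKPs, whereas Runx2 was not. Runx1, a regulator of blood and skin stem cells, stood at 7.37 RPKM in SKPs and 18.7 in fibroblasts, and Runx3 at 1.91 RPKM in SKPs and 26.9 in fibroblasts. Runx3 was thus 14.1-fold higher in fibroblasts (11.9 to 16.8). Msx1, a homeobox gene of the skull and teeth, had 89 SKP reads (2.43 RPKM) and 0 fibroblast reads, and the Notch target Hey1 had 46 SKP reads (1.10 RPKM) and 18 fibroblast reads (0.442 RPKM). On the log2(RPKM + 1) scale 1 gene of the list was higher, since Hey1 was no longer 2-fold apart, and at RPKM 5 or more 0 were, since both lay below that limit. The stress factor gene Atf4, at 199 RPKM in SKPs and 276 in fibroblasts, and Twist2, which restrains Runx2, at 122 RPKM in SKPs and 155 in fibroblasts, were neither.

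Of 7 expressed genes of other mineral inhibitors and of vitamin K-dependent carboxylation, 0 were higher in SKPs, 1 was lower and 6 neither, at a median log2 ratio of -0.07. The lower gene was Tnfrsf11b, which encodes osteoprotegerin, a decoy receptor that restrains osteoclasts, at 2.32 RPKM in SKPs and 16.7 in fibroblasts. Vkorc1, which recycles the vitamin K that Mgp carboxylation needs, stood at 92.9 RPKM in SKPs and 66.7 in fibroblasts. Gas6, another Gla protein, stood at 168 RPKM in SKPs and 131 in fibroblasts, the autophagy receptor gene Nbr1 at 42.2 RPKM in SKPs and 28.4 in fibroblasts, and Calu, which restrains the carboxylase, at 400.2 RPKM in SKPs and 421 in fibroblasts. None of these was 2-fold apart. The serum inhibitor gene Ahsg and the osteocyte gene Sost had 0 reads in both.

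**Figure D5:**
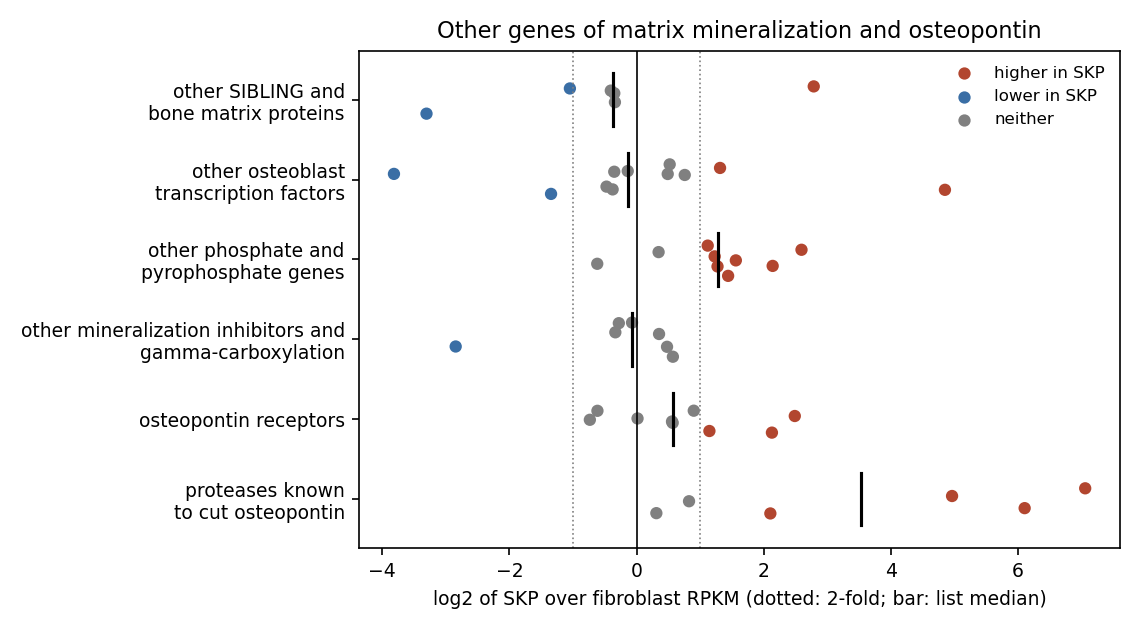
log2 of SKP over fibroblast RPKM for the expressed genes of 6 lists (points; red, higher in SKP; blue, lower; grey, neither), with the list median as a bar and dotted lines at 2-fold. The phosphate list (median 1.27) and the protease list (median 3.53) lie mostly to the right, and the other lists lie closer to 0.

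Markers show what else the cultures held, though the lists overlap. The osteoblast list holds Sp7, Ibsp and Dmp1 of the mineralization genes, and Col1a1, which is also a dermal fibroblast marker. Fn1 and Vim are in both the dermal fibroblast and the SKP list. Of 10 dermal fibroblast markers all were expressed in both libraries, with 3 higher in SKPs, 2 lower and 5 neither. Of 10 SKP markers 10 reached RPKM 1 in SKPs and 8 in fibroblasts, with 4 higher in SKPs, 1 lower and 5 neither. Sox2 and Corin, among the higher ones, passed the expression limit through the SKP library only. Of 8 osteoblast and osteocyte markers, Sp7 and Col1a1 were expressed. Bglap and Sost were at 0 in both libraries, and the rest were below the expression limit. None of 8 chondrocyte markers was expressed, with Col2a1, Col9a1 and Matn1 at 0 in both.

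Markers of other cell types differed between the libraries in both directions. All 5 expressed macrophage and osteoclast markers of 10 (Cd68, Lyz2, Acp5, Ctsk and Fcer1g) were higher in SKPs. Fcer1g, at 0.398 RPKM in fibroblasts, passed the expression limit through the SKP library only and could not be called lower. Among all expressed genes 12.1% were higher and 6.41% were lower. The macrophage and osteoclast list summed to 616 RPKM in SKPs and 189 in fibroblasts. Ctsk alone stood at 584 RPKM in SKPs and 184 in fibroblasts, so the sum mostly describes that gene. The macrophage marker Csf1r did not differ beyond counting error, with 29 SKP reads and 20 fibroblast reads (1.41-fold, 0.770 to 2.63). The leukocyte gene Ptprc had 12 SKP reads and 2 fibroblast reads, and the osteoclast receptor gene Calcr had 0 in both. Keratinocyte markers summed to 31.2 RPKM in SKPs and 2.82 in fibroblasts, with 5 of 7 expressed and higher. Mast cell markers summed to 83.0 RPKM in SKPs and 0.133 in fibroblasts, with 6 of 6 higher. No keratinocyte or mast cell marker reached the expression limit in fibroblasts, so those counted passed it through the SKP library only. Such markers could not be called lower, and the counts of higher markers in these lists follow in part from that limit. Smooth muscle and pericyte markers summed to 76.9 RPKM in SKPs and 2065 in fibroblasts, where Acta2 alone stood at 1953 RPKM. Of these 7 markers, 4 (Acta2, Cnn1, Myh11 and Mcam) were lower in SKPs. The pericyte markers Rgs5 (7.19-fold, 2.82 to 23.4) and Notch3 (2.53-fold, 2.21 to 2.91) were higher in SKPs, and Cspg4 was neither. Rgs5 rested on 37 SKP reads (1.08 RPKM) and 5 fibroblast reads (0.150 RPKM). It passed the expression limit through the SKP library only, and Cnn1 and Myh11 passed it through the fibroblast library only. The part of these cells in the levels of Spp1, Mgp or any other mineralization gene was not tested.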

How the data were processed

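Each library was grouped by the cell type in its labels. Reads were 49 bases long, and 85.13% of 22981183 SKP reads and 81.65% of 23374716 fibroblast reads mapped to genes, per the file headers of the deposited mapping tables, whose percent values are shares of total reads. The deposited count per gene is a whole number without normalization, per the file headers. More reads were counted than had a single match, by 4370357 in SKPs and 3924587 in fibroblasts, so the split between near-identical genes is uncertain. The deposited RPKM is that count scaled by gene length and library total, per the file headers, and the deposited coverage is a percent of gene length. In the authors' comparison table the log2 ratio is of fibroblast over SKP, with an RPKM of 0 replaced by 0.01, and its sign was turned here. Per the submitters' processing notes the build was mm9. No aligner, counting tool, annotation or strandedness is given in the sources used here, so antisense and overlapping genes cannot be separated.

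A gene missing from a library was given 0 reads. Ratios of SKP over fibroblast RPKM and exact intervals were computed in Python 3.11.15 with numpy 2.4.6, pandas 2.3.3 and scipy 1.17.1, and drawn with matplotlib 3.10.9. The calls were tested on simulated data. Intervals and floors hold for counting error alone, as reads copied by PCR are not separate molecules. A library with 0 reads was set at a floor of 3 reads. The genes named are the 10 genes, up to 4 with the largest ratio and 2 with the highest RPKM of each list, the 5 nearest to Spp1, and those said to be chosen afterwards. The chromosomal neighbours, 3 on each side of the cluster, and the motifs were also chosen afterwards. The genes and lists were chosen with earlier results of these data known. An older symbol that matched several genes was left out. Upstream sequences come from RefSeq, GRCm38.p6. Alternatives changed the scaling, the pseudocount, the filter, the fold limit and the source of the ratio.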

Additional observations from a re-analysis of the deposited data

How the results depend on the processing

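The count of 5 mineralization genes higher in the SKP library was 5 under median-of-ratios scaling (which moved all log2 ratios by 0.01), with totals that left out the 14 genes with the most reads, and with the log2 ratio of the authors' deposited table. It was 4 on the log2(RPKM + 1) scale, where Alpl stood at 0.75 and was no longer 2-fold apart, 4 at RPKM 5 or more, which Alpl did not reach, 7 of 9 without the filter, when Dmp1 and Ibsp were counted against the floor, and 6 at a fold limit of 1.5, when Runx2 joined. At a fold limit of 4 it was 3, since fewer genes pass it. The shares of all genes called higher under these 4 rules were 9.11%, 9.23%, 12.6% and 18.7%, and 5.85% at a limit of 4. The count of lower genes was 0 under each of these. At a fold limit of 4 the other lists had 10 higher and 3 lower genes, and at 1.5 they had 8 lower. With reads not divided by length, Alpl over Enpp1 was 0.170 in SKPs, against 0.217 per length, and 0.540 in fibroblasts, against 0.691 per length. With totals that left out the 14 genes with the most reads, the log2 ratio of Spp1 was 2.13, against 2.17. That lay below its counting interval of 2.15 to 2.19. No mineralization gene changed direction under any alternative run. No paired analysis was possible because there was 1 library per group, and for the same reason no replicate could be left out. Depth limits Ibsp, Phex and Mepe, and the fibroblast values of Dmp1 and Mgp.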
